A study of Mus musculus with 15 samples.

Results

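Hypoxia and glycolysis genes were followed in MC38 tumours, a set of 33 genes taken by symbol from the 21851 genes listed in the expression table. The members were a given list and were not picked by a threshold on these values, but the list was drawn up with earlier results of these data known. MC38 is a mouse colon adenocarcinoma line, grown here as a syngeneic tumour, that is, in mice of its own strain. The 3 groups, of 5 tumours each, received BG136 together with anti-PD-1 antibodies, anti-PD-1 antibodies alone, or vehicle, all by the intravenous route. BG136 is a soluble β-glucan, and PD-1 is an inhibitory receptor of T cells. The genotype was labelled wild type in every group. Mouse age, sex, doses and the interval before collection were not given in the sources used here. Column headers divide the vehicle and combination tumours further, by a prefix whose meaning is not given. Vehicle replicate 1 has a different prefix from the other vehicle tumours. In the combination group replicates 2 and 3 share a prefix, replicates 4 and 5 share another, and replicate 1 stands alone. These prefixes were not used in the tests. Each library came from 1 tumour block, so its RNA holds that of cancer cells, immune cells, vessels and stroma together. In such bulk RNA, fewer cells of a type and less RNA per cell cannot be told apart. Nothing in the sources states that the 5 tumours came from separate mice, and p-values measure the spread between these tumours.

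Cells short of oxygen stabilise the HIF-alpha proteins, which are otherwise marked for destruction by the EGLN prolyl hydroxylases and the VHL ubiquitin ligase. HIF then binds short DNA motifs near target genes and raises glucose transporters, nearly every glycolytic enzyme, lactate export, angiogenic factors and mitophagy proteins. Tumours use the same enzymes with oxygen present, and activated macrophages and T cells also raise them, so the genes mark a shared programme rather than 1 cell type.

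Values are FPKM, fragment counts scaled to transcript length and library size, which allow levels of different genes to be compared. The FPKM sum per library was 377509 to 424899. Read totals were not used, so absolute depth is unknown, and a relative depth estimated from low-expressed genes, with vehicle replicate 1 set to 1, was 0.834 to 1.07. BG136 plus anti-PD-1 replicate 5 stood apart: its median Pearson correlation with the other libraries, across genes, was 0.948, against 0.974 to 0.989 for the rest. The labels give the cells as colon adenocarcinoma, yet epithelial markers were low, though less so in some treated tumours. The summed FPKM of Epcam, Krt8, Krt18, Krt19 and Cdh1 was 2.98 to 27.6 in BG136 plus anti-PD-1 tumours, 1.15 to 19.8 in anti-PD-1 tumours and 1.02 to 7 in vehicle tumours, and Krt18 and Krt19 were listed at 0 in 3 of 5 vehicle tumours. Changes were tested with limma on log2(FPKM + 1) over the 11311 genes that reached 1 FPKM in 5 or more tumours. All 33 members passed this filter. A gene is called changed at a Benjamini-Hochberg adjusted p under 0.05, over all genes tested.

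The central glycolytic genes were among the most abundant members and differed little between groups. Eno1 (enolase) averaged 614 ± 106 FPKM in BG136 plus anti-PD-1 tumours, 645 ± 51.2 in anti-PD-1 tumours and 679 ± 61.7 in vehicle tumours (SD, n = 5 each). Pgk1 (phosphoglycerate kinase) averaged 612 ± 174, 600 ± 57.1 and 613 ± 102 FPKM in the same order of groups. Ldha, which reduces pyruvate to lactate, averaged 578 ± 126, 593 ± 67.0 and 594 ± 57.4 FPKM. For these 3 genes the group means lay closer together than the tumours of a single group. At the low end stood Slc2a3 (the glucose transporter GLUT3), Aldoc, the aldolase best known from brain, and Car9, the membrane carbonic anhydrase that is a widely used hypoxia marker. Car9 averaged 2.24 ± 0.270 FPKM in BG136 plus anti-PD-1 tumours, 2.13 ± 0.648 in anti-PD-1 tumours and 2.22 ± 0.756 in vehicle tumours. The 33 members together made up 0.744% to 1.22% of a library's FPKM sum in the BG136 plus anti-PD-1 group, 0.944% to 1.17% in the anti-PD-1 group and 0.990% to 1.28% in the vehicle group. FPKM of Eno1, Pgk1, Ldha, Tpi1, Pgam1, Aldoa and Pkm is uncertain, since these genes have close paralogs or processed pseudogenes that can share reads. Gapdh, normally one of the most abundant glycolytic messages, was listed at only 1.95 to 3.48 FPKM over the 15 tumours.

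BG136 plus anti-PD-1 against vehicle asked how the combined treatment changed these genes. Of the 7 upper-glycolysis members 4 rose (Pfkp, Pfkfb3, Pfkfb4 and Aldoc) while Pfkl, Gpi1 and Aldoa did not pass, and of the 4 members for glucose entry and trapping only Slc2a3 rose. The collagen prolyl hydroxylases P4ha1 and P4ha2 and the mTORC1 inhibitor Ddit4 fell. The other 25 members did not pass, among them Vegfa, Slc2a1, Car9, Bnip3 and every lower-glycolysis enzyme. In all 8 of 33 members passed, 5 higher and 3 lower, where 40.5% of all genes tested passed, 16.6% higher and 23.9% lower. Changed genes were therefore a smaller share of the members than of the genes tested. In the combination group the median SD of log2(FPKM + 1) was 0.358 over members and 0.164 over all genes tested. A gene with a wider spread passes less readily, so these shares do not compare the size of the changes. The median log2 change was -0.06 over members and -0.05 over all genes. Under median-ratio scaling the members called were the same 8, while over all genes 2272 were higher and 1809 lower, in place of 1872 and 2706.

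Pfkp encodes the platelet type of phosphofructokinase, the committed step of glycolysis. Pfkp was at 15.8, 15, 20.9, 17.8 and 16.8 FPKM in BG136 plus anti-PD-1 tumours, 12.7, 13.3, 13.0, 15.2 and 16.5 in anti-PD-1 tumours, and 10.9, 10.6, 11.8, 11.8 and 10.1 in vehicle tumours. All 10 treated tumours lay above all 5 vehicle tumours, while the treated groups overlapped. The log2 change of the combination from vehicle was 0.59 ± 0.09 (SE, limma adjusted p = 2.81e-04). Pfkfb3 makes the sugar bisphosphate that activates phosphofructokinase. Its values were 11, 8.84, 18.4, 12.5 and 17.0 FPKM in BG136 plus anti-PD-1 tumours, 7.76, 8.35, 7.11, 8.04 and 9.97 in anti-PD-1 tumours, and 6.11, 5.31, 5.87, 7.28 and 6.03 in vehicle tumours. Every combination tumour exceeded every vehicle tumour, and replicates 3 and 5 were highest. Pfkfb3 had the largest log2 change of any member, 0.99 ± 0.15 (adjusted p = 3.76e-04). This rank holds for the log2(FPKM + 1) scale, which understates changes of low genes such as Slc2a3.

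The other members that rose were expressed at low levels. Slc2a3 was at 1.17, 1.38, 2.66, 1.68 and 4.84 FPKM in BG136 plus anti-PD-1 tumours, 0.914, 0.749, 1.08, 1.24 and 1.02 in anti-PD-1 tumours, and 0.547, 1.04, 1.23, 1.11 and 0.792 in vehicle tumours. Combination replicates 3 and 5 carried the highest values, and the lowest combination tumour overlapped vehicle. The log2 change was 0.70 ± 0.21 (adjusted p = 0.0178). Aldoc was at 1.78, 1.28, 2.98, 2.98 and 2.34 FPKM in BG136 plus anti-PD-1 tumours, 1.67, 1.27, 1.28, 1.26 and 1.5 in anti-PD-1 tumours, and 1.21, 0.807, 1.35, 1.38 and 0.804 in vehicle tumours. Only combination replicate 2 fell within the vehicle range, and the log2 change was 0.61 ± 0.14 (adjusted p = 0.00435). Pfkfb4, a second enzyme of the Pfkfb family, was at 2.91, 2.08, 3.94, 2.79 and 5.61 FPKM in BG136 plus anti-PD-1 tumours, 2.69, 3.00, 2.87, 2.03 and 2.82 in anti-PD-1 tumours, and 2.21, 2.26, 2.11, 2.08 and 2.42 in vehicle tumours. Its log2 change of 0.42 ± 0.15 (adjusted p = 0.0397) held in 12 of 23 alternatives, and was lost without any single vehicle tumour and without combination replicate 3 or 5 (adjusted p 0.00573 to 0.257 over the alternatives).

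P4ha1 and P4ha2 encode catalytic subunits of the enzyme that hydroxylates proline in collagen, which collagen needs for a stable triple helix. P4ha1 was at 54.3, 64.5, 50.8, 61.4 and 37.5 FPKM in BG136 plus anti-PD-1 tumours, 45.7, 50.7, 68.6, 65.2 and 62.9 in anti-PD-1 tumours, and 80.2, 67.6, 78.8, 73.5 and 72.8 in vehicle tumours. P4ha2 was at 18.0, 20.4, 16.1, 18.5 and 14.9 FPKM in BG136 plus anti-PD-1 tumours, 18.1, 15.9, 21.4, 17.0 and 16.5 in anti-PD-1 tumours, and 28.6, 26.6, 27.3, 23.0 and 21.6 in vehicle tumours. For both genes every combination tumour lay below every vehicle tumour. P4ha1 fell by 0.49 ± 0.14 on the log2 scale (adjusted p = 0.0111) and P4ha2 by 0.51 ± 0.10 (adjusted p = 0.00134). Ddit4 (REDD1), a stress-induced brake on mTORC1, was at 30.3, 41.8, 23.4, 35.2 and 15.9 FPKM in BG136 plus anti-PD-1 tumours, 27.2, 26.1, 35.8, 31.5 and 25.9 in anti-PD-1 tumours, and 47.2, 39.6, 45.0, 43.1 and 39.4 in vehicle tumours. Combination replicate 2 reached into the vehicle range, and replicates 3 and 5 were lowest. The log2 change was -0.60 ± 0.19 (adjusted p = 0.0207). Groups did not overlap for 4 of 33 members (Pfkp, Pfkfb3, P4ha1 and P4ha2), against 24.0% of all genes tested.

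**Figure D1:**
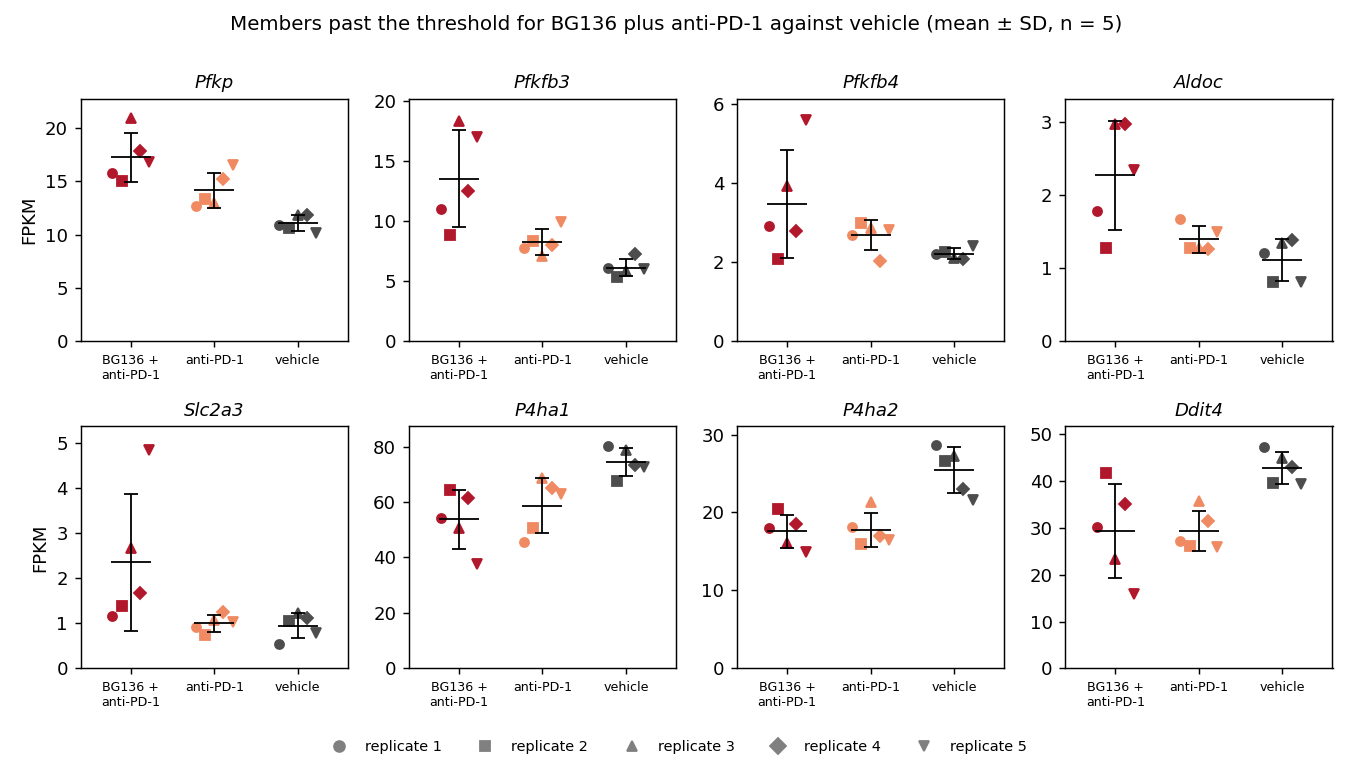
FPKM (y axis, linear from 0) of the 8 members called for BG136 plus anti-PD-1 against vehicle, with 1 point per tumour, marker shape for the replicate number, and bars for mean ± SD (n = 5). Pfkp of the combination group lies between 15 and 20.9, above the vehicle range of 10.1 to 11.8, and P4ha2 lies between 14.9 and 20.4, below the vehicle range of 21.6 to 28.6.

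The calls did not all survive without the tumours that stood out. With combination replicates 3 and 5 left out, an alternative chosen after the data were seen, 7 members passed (21.2%), against 28.4% of all genes in that fit, and 4 of the 7 had also passed with all tumours: Pfkp, Pfkfb3 and Aldoc higher, and P4ha2 lower. Slc2a3 (log2 0.32 ± 0.12, adjusted p = 0.0700), Pfkfb4 (0.15 ± 0.10, adjusted p = 0.257), P4ha1 (-0.31 ± 0.12, adjusted p = 0.0639) and Ddit4 (-0.26 ± 0.11, adjusted p = 0.101) did not pass there. Vegfa (0.45 ± 0.13, adjusted p = 0.0194), Mxi1 (0.28 ± 0.09, adjusted p = 0.0363) and Slc16a3 (0.24 ± 0.08, adjusted p = 0.0395) passed in their place. Combination replicate 5 was the lowest combination tumour for each of these 3 genes, so leaving it out raises their values in advance. No conclusion is drawn from their passing. Ddit4 also lost its call without combination replicate 3 alone, and Vegfa passed without combination replicate 5 alone (0.38 ± 0.12, adjusted p = 0.0268).

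Promoter sequence is shown for the 3 members that fell, for Pfkp, the gene with the smallest p, and for Bnip3, a HIF target that varied widely between tumours. Each line gives the 250 bases before the RefSeq start site, 5′ to 3′, in build GRCm38.p6 of the sequence table, which is not the GRCm39 build named by the submitters. Capitals mark the core of the hypoxia response element, searched as ACGTG and GCGTG on both strands, so that it also appears as CACGT and CACGC.
Pfkp, chr13:6648772-6649021, minus strand: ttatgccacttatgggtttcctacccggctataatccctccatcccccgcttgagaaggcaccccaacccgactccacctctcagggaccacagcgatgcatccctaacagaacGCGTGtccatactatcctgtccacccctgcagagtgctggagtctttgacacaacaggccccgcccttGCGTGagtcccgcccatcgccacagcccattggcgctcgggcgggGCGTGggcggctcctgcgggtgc
P4ha1, chr10:59323046-59323295, plus strand: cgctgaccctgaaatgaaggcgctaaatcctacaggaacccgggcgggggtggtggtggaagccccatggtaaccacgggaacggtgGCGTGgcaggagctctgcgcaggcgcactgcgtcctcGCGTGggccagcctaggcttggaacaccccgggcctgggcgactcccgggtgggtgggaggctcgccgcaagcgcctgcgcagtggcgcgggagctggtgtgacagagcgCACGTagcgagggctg
P4ha2, chr11:54100674-54100923, plus strand: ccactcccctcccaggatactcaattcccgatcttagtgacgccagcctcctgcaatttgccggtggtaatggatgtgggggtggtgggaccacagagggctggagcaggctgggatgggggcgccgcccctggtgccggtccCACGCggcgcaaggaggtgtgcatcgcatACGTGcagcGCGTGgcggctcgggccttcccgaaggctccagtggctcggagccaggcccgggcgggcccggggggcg
Ddit4, chr10:59951771-59952020, minus strand: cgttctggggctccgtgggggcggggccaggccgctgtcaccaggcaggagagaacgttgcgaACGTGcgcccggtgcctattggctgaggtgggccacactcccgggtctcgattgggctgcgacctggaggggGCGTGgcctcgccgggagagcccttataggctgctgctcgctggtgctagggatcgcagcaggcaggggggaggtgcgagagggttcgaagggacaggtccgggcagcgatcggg
Bnip3, chr7:138909507-138909756, minus strand: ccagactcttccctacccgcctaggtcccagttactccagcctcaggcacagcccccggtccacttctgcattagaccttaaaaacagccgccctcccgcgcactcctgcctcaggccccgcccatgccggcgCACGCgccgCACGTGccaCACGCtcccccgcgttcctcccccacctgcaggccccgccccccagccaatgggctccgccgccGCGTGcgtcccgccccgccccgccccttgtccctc
Of the 33 members, 30 were in the table, and 28 of these had at least 1 core in this window of at least 1 start site. Counted by start site, 35 of 45 member windows (77.8%) held a core, against 38.6% of all 32851 windows. The list was made of hypoxia and glycolysis genes, so a higher share can follow from that choice and says nothing of these tumours. Windows of neighbouring start sites of a gene can overlap, so some bases were counted more than once. The ACGTG form also matches the E-box CACGTG, which lay in 6.67% of member windows and 6.02% of all windows. These are matches of letters in windows that were not matched for base composition, and HIF binding was not measured. Members that fell (P4ha1, P4ha2, Ddit4), a member that rose (Pfkp) and one that did not pass (Bnip3) all held cores.

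The remaining members differed less between BG136 plus anti-PD-1 and vehicle. Among glucose entry genes, Slc2a1 (GLUT1) averaged 66.1 ± 22.1 FPKM in the combination group and 67.6 ± 11.3 in the vehicle group. The hexokinases Hk1 and Hk2, which trap glucose in the cell, had log2 changes of 0.03 ± 0.08 and -0.06 ± 0.12. In upper glycolysis, Pfkl, the liver type of phosphofructokinase, averaged 43.6 ± 9.71 FPKM in the combination group and 54.9 ± 3.42 in the vehicle group, and just missed the threshold at -0.36 ± 0.14 (adjusted p = 0.0561). Gpi1, which isomerises glucose phosphate, and Aldoa, the main aldolase, changed by -0.06 ± 0.10 and 0.06 ± 0.08. None of the 5 lower-glycolysis enzymes passed, with log2 changes between -0.19 ± 0.11 for Pgam1 and 0.06 ± 0.08 for Pkm. The lactate exporter Slc16a3 (MCT4) changed by -0.02 ± 0.16, and Pdk1, which restrains pyruvate oxidation, by -0.19 ± 0.17.

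The classical HIF feedback and target genes also did not pass. The oxygen sensors Egln1 and Egln3 had log2 changes of -0.23 ± 0.11 (adjusted p = 0.0983) and -0.12 ± 0.26 (adjusted p = 0.738). The HIF-induced histone demethylase Kdm3a was at -0.34 ± 0.18 and the ankyrin-repeat target Ankrd37 at -0.31 ± 0.34. Vegfa, the main angiogenic factor, was at 0.15 ± 0.20 and the vasodilator peptide adrenomedullin (Adm) at -0.07 ± 0.24. The mitophagy receptors Bnip3 and Bnip3l were at -0.26 ± 0.29 and -0.07 ± 0.10. Ndrg1, a stress-responsive growth regulator, was at -0.06 ± 0.19 and the MYC antagonist Mxi1 at 0.18 ± 0.10 (adjusted p = 0.149). The wide errors of Ankrd37, Bnip3 and Egln3 leave room for changes of the size called in other members.

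**Figure D2:**
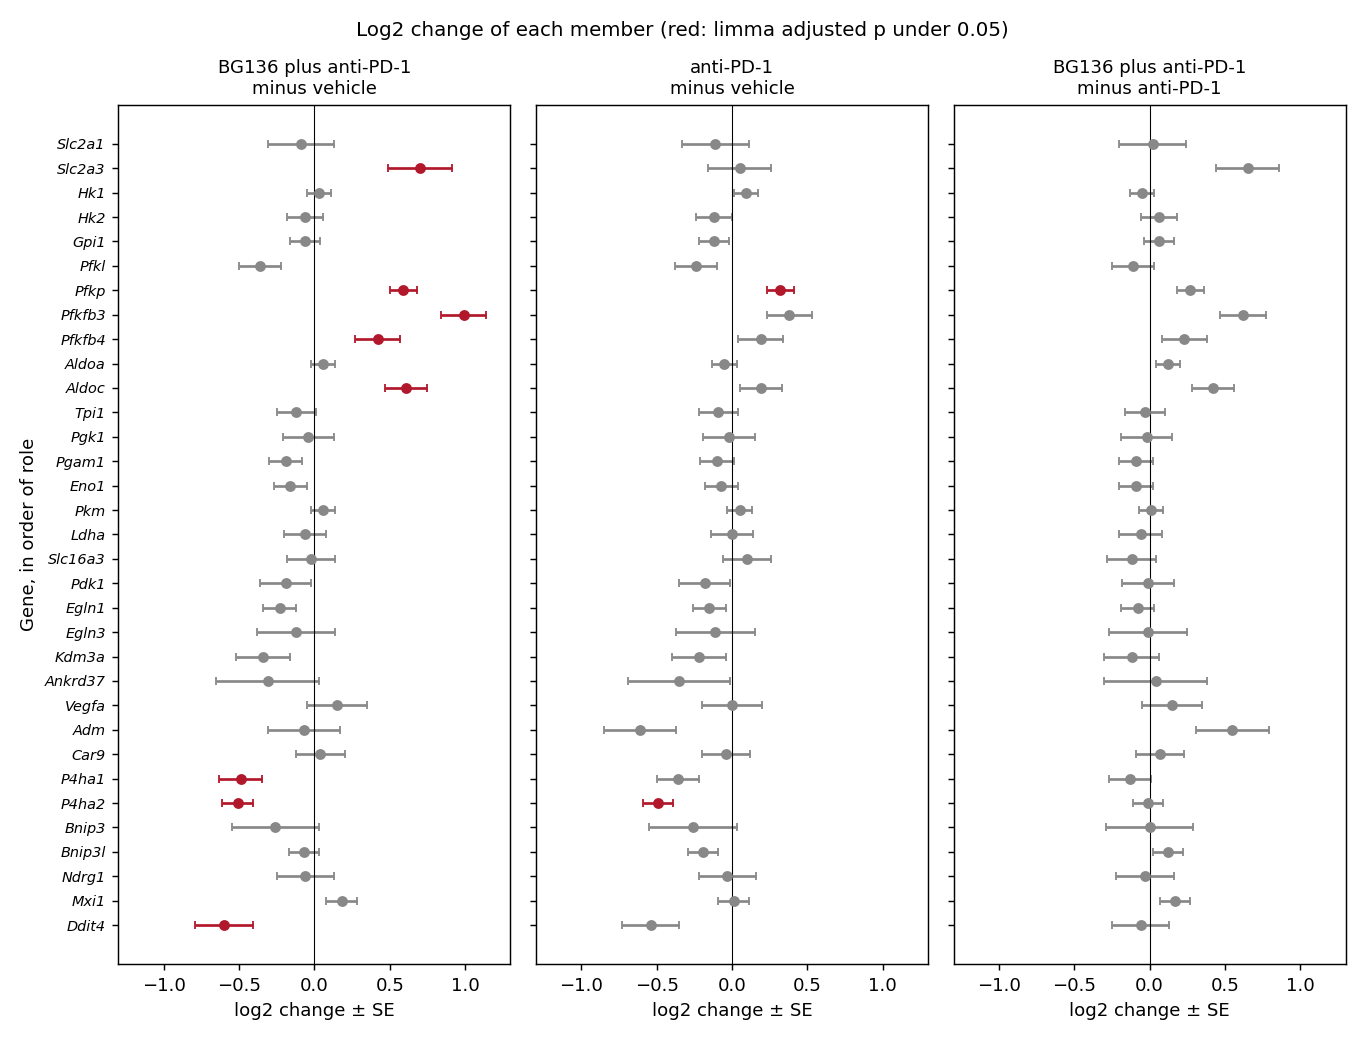
Log2 change ± SE (x axis) of each of the 33 members (y axis, in order of role) for BG136 plus anti-PD-1 minus vehicle, anti-PD-1 minus vehicle, and BG136 plus anti-PD-1 minus anti-PD-1, with genes past the limma threshold in red. Pfkfb3 is farthest to the right at 0.99 in the first panel, and 8, 2 and 0 members are red.

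Anti-PD-1 against vehicle asked what the antibody did alone, and it shares its vehicle tumours with the comparison above. Pfkp was higher and P4ha2 lower, and no other member passed. That is 2 of 33 members, where 5.55% of all genes tested passed, 2.21% higher and 3.34% lower. Pfkp changed by 0.32 ± 0.09 (adjusted p = 0.0446) and P4ha2 by -0.49 ± 0.10 (adjusted p = 0.0112), both without overlap of the groups. The Pfkp call ended in 12 of 24 alternatives, among them the fits without any single vehicle tumour without anti-PD-1 replicate 1, 2, 4 or 5 and without combination replicate 1 (adjusted p 0.0061 to 0.117 over the alternatives), whereas P4ha2 passed in all 24. Ddit4 did not pass (-0.54 ± 0.19, adjusted p = 0.106), although its anti-PD-1 tumours all lay below the vehicle tumours. Groups did not overlap for 3 of 33 members, against 13.7% of all genes tested.

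The shared spread of the fit bears on this count, because the combination tumours vary more than the others. With 1 weight per group, 6 members passed (18.2%), 2 higher and 4 lower, which is near the 20.1% of all genes that passed in that fit. Beside Pfkp and P4ha2 these were Pfkfb3 (0.38 ± 0.10, adjusted p = 0.0218), P4ha1 (-0.36 ± 0.10, adjusted p = 0.0267), Ddit4 (-0.54 ± 0.12, adjusted p = 0.00763) and Adm (-0.61 ± 0.20, adjusted p = 0.0400). Adm was at 5.41, 3.77, 7.24, 5.20 and 4.10 FPKM in anti-PD-1 tumours, against 12.1, 7.76, 8.26, 9.74 and 4.84 in vehicle tumours. All 5 anti-PD-1 tumours lay below the vehicle mean, but the groups overlapped through vehicle replicate 5. In the unweighted fit Adm did not pass (adjusted p = 0.140).

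Comparing the combination with the antibody alone asked what BG136 added. No member passed, 0 of 33, where 0.0619% of all genes tested passed, and the groups overlapped for all 33, where 4.50% of all genes tested did not overlap. At an unadjusted limma p under 0.05 there were 5 members (15.2%), against 28.2% of all genes tested. All 5 were higher with the combination: Pfkfb3 (0.62 ± 0.15, adjusted p = 0.0790), Pfkp (0.27 ± 0.09, adjusted p = 0.0980), Slc2a3 (0.65 ± 0.21, adjusted p = 0.0985), Aldoc (0.42 ± 0.14, adjusted p = 0.102) and Adm (0.55 ± 0.24, adjusted p = 0.152). Without combination replicates 3 and 5, an alternative chosen after the data were seen, no member passed either. There 15 of 33 (45.5%) had an unadjusted limma p under 0.05, against 13.3% of all genes. The median log2 difference was 0.19 over members and -0.03 over all genes. Combination replicate 5 was the lowest tumour for 21 of 33 members, so leaving it out raises the member values in advance. No conclusion is drawn from this contrast. For Pfkp, Pfkfb3, Aldoc, Slc2a3 and Pfkfb4 the mean FPKM was highest in the combination group, intermediate with anti-PD-1 and lowest with vehicle. Neighbouring groups in that order overlapped, except anti-PD-1 and vehicle for Pfkp. For P4ha2 the treated means were 17.6 ± 2.14 FPKM with the combination and 17.8 ± 2.18 with anti-PD-1, and for Ddit4 they were 29.3 ± 10.1 and 29.3 ± 4.29. Combination replicate 2 decided the count: without it 4 members passed as higher (12.1%), Pfkfb3, Pfkp, Slc2a3 and Aldoc, while 19.7% of all genes passed.

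Several enzymes of these steps exist as isoforms, and their shares are given as a description, without a test. Pfkp made up 20.5%, 19.0%, 28.3%, 21.4% and 30.7% of the summed FPKM of Pfkl, Pfkm and Pfkp in BG136 plus anti-PD-1 tumours. It made up 18.9%, 20.2%, 15.6%, 19.9% and 20.3% in anti-PD-1 tumours and 12.5%, 12.9%, 14.2%, 14.7% and 13.2% in vehicle tumours. Pfkl stayed the most abundant of the 3 in every tumour, at 50.6% to 62.5% with the combination, 58.8% to 66.0% with anti-PD-1 and 65.9% to 68.1% with vehicle. Slc2a3 was a median of 2.22% of Slc2a1 plus Slc2a3 in the combination group, 1.52% in the anti-PD-1 group and 1.56% in the vehicle group, and reached 13.3% in combination replicate 5. Hk3, a hexokinase of myeloid cells that is not among the 33 members, was a median of 41.6% of Hk1, Hk2 and Hk3 with the combination, 31.9% with anti-PD-1 and 20.7% with vehicle. Combination replicates 3 and 5 had the highest Pfkp, Hk3 and Slc2a3 shares of all 15 tumours.

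**Figure D3:**
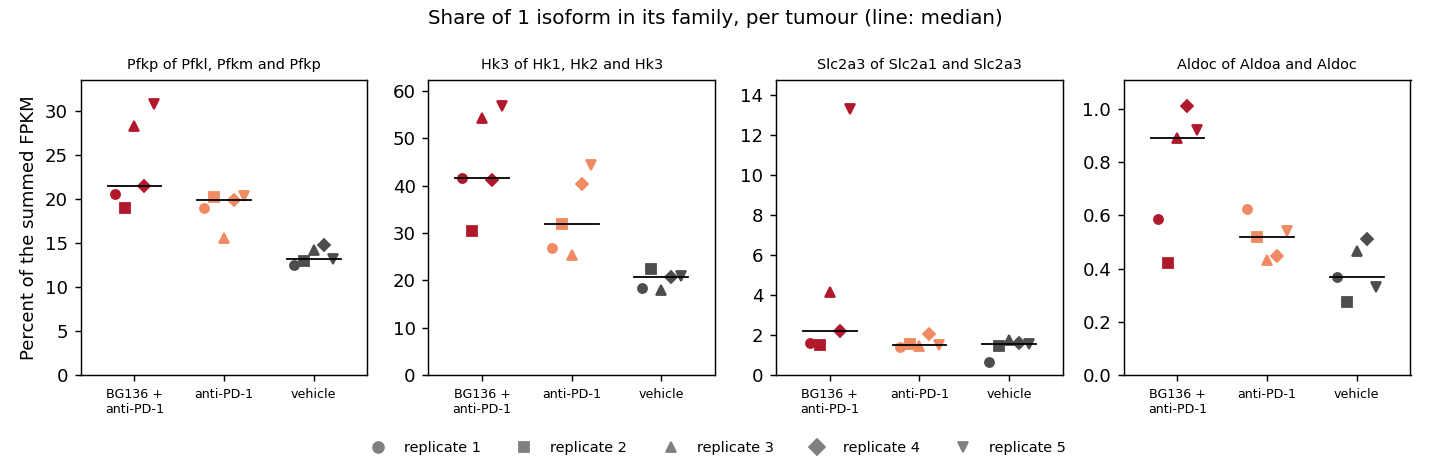
Share of 1 isoform in the summed FPKM of its family (y axis, percent, linear from 0), with 1 point per tumour, marker shape for the replicate number and a line at the group median. Pfkp is at 19.0% to 30.7% with BG136 plus anti-PD-1, 15.6% to 20.3% with anti-PD-1 and 12.5% to 14.7% with vehicle.

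Tumours of the combination group differed widely among themselves in the HIF targets. The median SD of log2(FPKM + 1) over the 33 members was 0.358 in the BG136 plus anti-PD-1 group, 0.142 in the anti-PD-1 group and 0.163 in the vehicle group, and over all genes tested it was 0.164, 0.0960 and 0.0913. The combination group had the largest SD for 30 of 33 members (90.9%), against 72.5% of all genes. Exceptions were Car9, Hk1 and Aldoa. The combination SD was 7 times the vehicle SD for Pfkfb4, 4.69 times for Ddit4 and 4.68 times for Slc16a3.

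Bnip3 shows the pattern at a high level. It was at 106, 115, 58.1, 124 and 34.6 FPKM in BG136 plus anti-PD-1 tumours, 78.3, 60.6, 100, 75.4 and 86.2 in anti-PD-1 tumours, and 124, 98.1, 99.6, 98.7 and 64.5 in vehicle tumours. Combination replicates 3 and 5 were the lowest of all 15, while replicates 1, 2 and 4 lay within or at the top of the vehicle range. Ankrd37 was at 6.53, 8.14, 2.78, 10.1 and 1.28 FPKM in BG136 plus anti-PD-1 tumours, 4.45, 3.55, 6.03, 4.67 and 4.79 in anti-PD-1 tumours, and 7.57, 6.74, 6.62, 6.78 and 3.93 in vehicle tumours. Combination replicates 2 and 4 exceeded every other tumour and replicates 3 and 5 were below every other tumour. Vegfa was at 31.9, 39.6, 32.0, 46.8 and 16.3 FPKM in BG136 plus anti-PD-1 tumours, 26.9, 26.2, 29.9, 29.4 and 29.7 in anti-PD-1 tumours, and 35.7, 25.3, 27.7, 30.7 and 23.8 in vehicle tumours. Replicate 5 was again the lowest of all 15, whereas replicate 3 was not low for Vegfa.

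**Figure D4:**
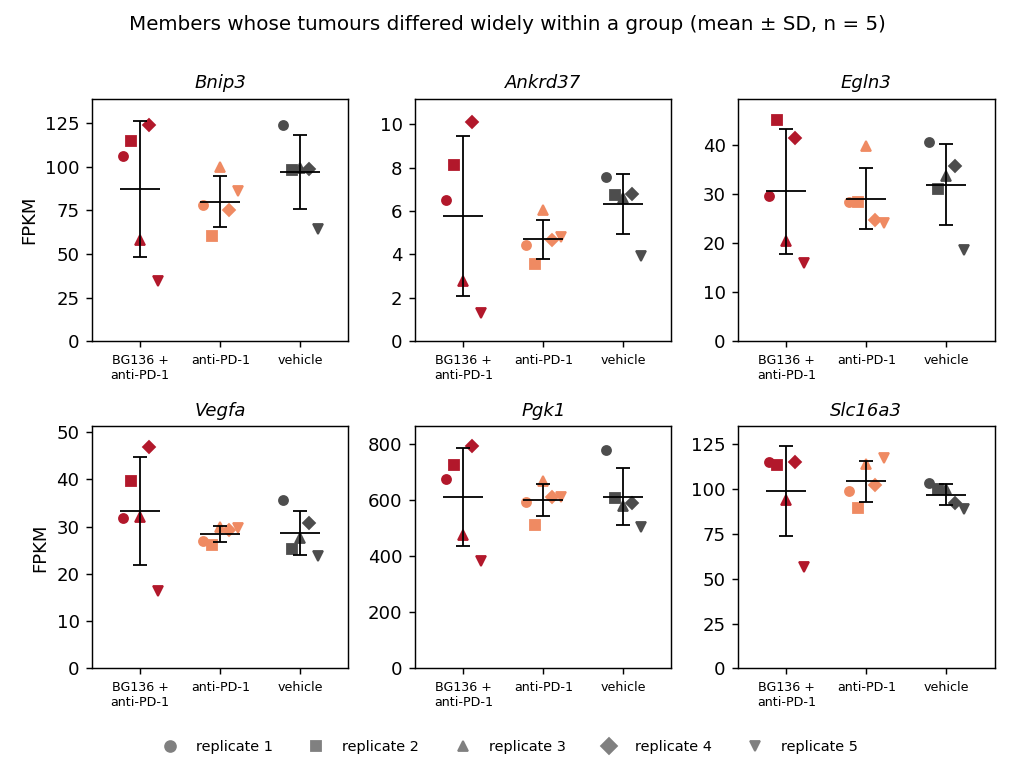
FPKM (y axis, linear from 0) of Bnip3, Ankrd37, Egln3, Vegfa, Pgk1 and Slc16a3, with 1 point per tumour, marker shape for the replicate number, and bars for mean ± SD (n = 5). Combination replicate 5 is the lowest of all 15 tumours in each panel, and the combination tumours span 34.6 to 124 for Bnip3.

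Combination replicate 5 was the lowest of the 15 tumours for 21 of 33 members (63.6%), against 30.2% of all genes tested. It was the highest for 2 members (6.06%, against 21% of all genes), Slc2a3 and Pfkfb4. Combination replicate 4 was the highest for 8 members (24.2%, against 8.57% of all genes) and replicate 2 for 5 (15.2%, against 3.87%). Among controls, vehicle replicate 1 was the highest for 11 members (33.3%, against 6.61% of all genes). Vehicle replicate 5 was the lowest for 5 (15.2%, against 5.41%). The median member lay 0.54 log2 units below its 15-tumour mean in combination replicate 5 (-0.54), against 0.20 in combination replicate 4, -0.19 in vehicle replicate 5 and 0.27 in vehicle replicate 1.

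**Figure D5:**
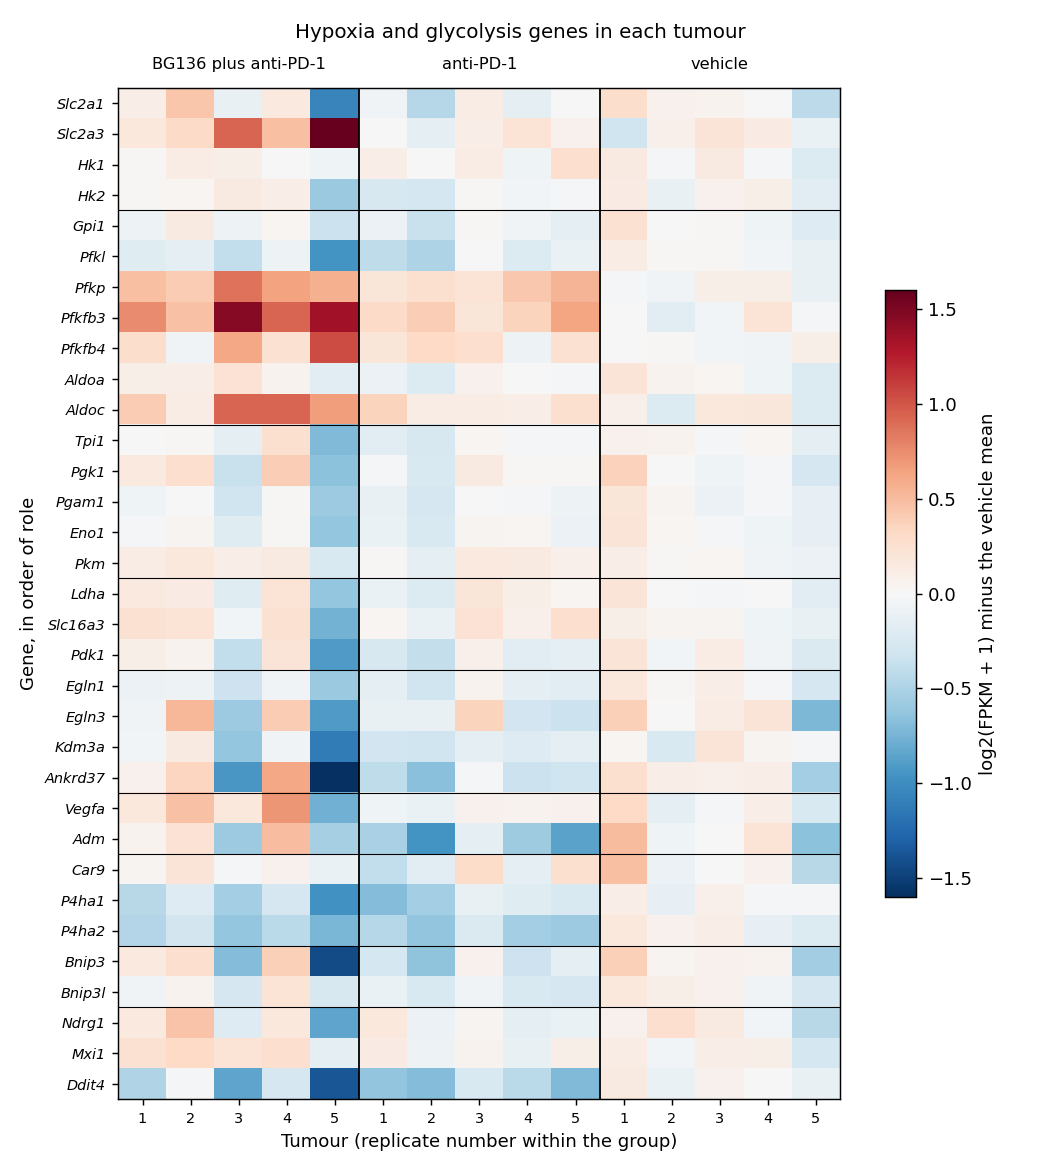
Heat map of log2(FPKM + 1) minus the vehicle mean (colour scale) for the 33 members (rows, in order of role) in the 15 tumours (columns, by group and replicate number). Combination replicate 5 is blue in most rows but red for Slc2a3, Pfkp, Pfkfb3, Pfkfb4 and Aldoc, and P4ha1, P4ha2 and Ddit4 are blue in nearly all treated tumours.

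Markers of other cell types also differed between the groups. Of 11 macrophage and monocyte markers 9 were higher and 0 lower in the combination than in vehicle, as were 5 of 5 T cell markers and 6 of 8 endothelial markers. Of all genes tested 16.6% were higher and 23.9% lower. The summed macrophage FPKM was 4216, 3471, 6625, 4926 and 8648 in BG136 plus anti-PD-1 tumours, 2948 to 3874 in anti-PD-1 tumours and 2062 to 2780 in vehicle tumours. The T cell sum was 50.5, 37.1, 66.6, 48.7 and 132 FPKM in BG136 plus anti-PD-1 tumours, 26.7 to 38.8 in anti-PD-1 tumours and 11.8 to 24.7 in vehicle tumours. Combination replicates 3 and 5, the tumours lowest in Bnip3 and Ankrd37 and highest in Slc2a3 and Pfkfb4, were thus also the highest in both sums. The endothelial sum was 50.1, 46.7, 81.8, 63.3 and 119 FPKM in BG136 plus anti-PD-1 tumours, 39.7 to 59.7 in anti-PD-1 tumours and 32.2 to 46.8 in vehicle tumours. The part of these cells in the changes of Slc2a3, Pfkfb3, Pfkp and the other members was not tested.

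Beside P4ha1 and P4ha2, the summed FPKM of 7 fibroblast markers was 862 to 1986 in BG136 plus anti-PD-1 tumours, 823 to 1479 in anti-PD-1 tumours and 1177 to 1380 in vehicle tumours. In the combination 3 of these markers were higher and 2 lower than in vehicle, so the fibroblast list did not move one way there. With anti-PD-1 alone 0 of 7 were higher and 2 lower than in vehicle. The sum of 8 proliferation genes was 270 to 388 FPKM in BG136 plus anti-PD-1 tumours, 366 to 397 in anti-PD-1 tumours and 334 to 363 in vehicle tumours, with 0 of 8 called in each comparison, and it was lowest of all in combination replicate 5. Skeletal muscle markers, which bring their own glycolytic enzymes, summed to 2.05 to 248 FPKM in BG136 plus anti-PD-1 tumours, 44.9 to 222 in anti-PD-1 tumours and 1.80 to 246 in vehicle tumours. They varied in every group, and 0 of 13 was called in each comparison. Adipocyte markers summed to 29.2 to 318 FPKM in BG136 plus anti-PD-1 tumours, 50.2 to 310 in anti-PD-1 tumours and 8.09 to 231 in vehicle tumours, red blood cell genes to 21.5 to 183, 25.2 to 66.6 and 14.3 to 39.8 FPKM, and neutrophil markers to 15.1 to 46.7, 4.57 to 29.1 and 4.92 to 11.5 FPKM in the same order of groups. Of the markers tested, 1 of 8 adipocyte, 2 of 4 red blood cell, 3 of 4 neutrophil and 1 of 5 epithelial markers were higher in the combination than in vehicle.

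Messages of the HIF-alpha subunits Hif1a and Epas1 were higher in the combination than in vehicle. Hif1a, the inducible alpha subunit, was at 38.0, 36.3, 60.9, 41.4 and 59.2 FPKM in BG136 plus anti-PD-1 tumours, 42.1, 36.7, 32.4, 35.7 and 38.0 in anti-PD-1 tumours, and 32.7, 33.6, 34.8, 34.9 and 34.1 in vehicle tumours. Epas1 (HIF-2 alpha), prominent in endothelium and macrophages, was at 6.64, 4.93, 11.6, 7.94 and 15 FPKM in BG136 plus anti-PD-1 tumours, 7.81, 7, 3.90, 4.94 and 4.96 in anti-PD-1 tumours, and 2.76, 3.21, 3.75, 3.67 and 3.96 in vehicle tumours. Both genes were above all vehicle tumours in each combination tumour and peaked in replicates 3 and 5. Hif1a changed by 0.43 ± 0.13 (adjusted p = 0.0159) and Epas1 by 1.11 ± 0.23 (adjusted p = 0.00197). Without combination replicates 3 and 5 the Hif1a call ended (0.17 ± 0.07, adjusted p = 0.0744) and the Epas1 call held (0.73 ± 0.18, adjusted p = 0.00889). In anti-PD-1 against vehicle neither passed (0.11 ± 0.13, adjusted p = 0.638, and 0.56 ± 0.23, adjusted p = 0.158). These are message levels, and HIF-alpha is controlled mainly at the protein level, which was not measured.

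Of 15 genes for HIF subunits and regulators, 13 were tested, and in the combination against vehicle 2 were higher (Hif1a and Epas1) and 3 lower. Of all genes tested, 16.6% were higher and 23.9% lower in that comparison. Cited2, which competes with HIF for its coactivators, was at 64.3 ± 7.71 FPKM in BG136 plus anti-PD-1 tumours, 73.4 ± 6.87 in anti-PD-1 tumours and 89.4 ± 4.38 in vehicle tumours (SD, n = 5). It fell by 0.48 ± 0.08 on the log2 scale with the combination (adjusted p = 5.34e-04) and by 0.29 ± 0.08 with anti-PD-1 alone (adjusted p = 0.0485). Arnt, the partner of the alpha subunits, changed by -0.22 ± 0.07 (adjusted p = 0.0146) with the combination.

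Of 15 other glycolysis enzymes 10 were tested, and 1 was higher and 2 lower in the combination than in vehicle. The shares over all genes tested were 16.6% higher and 23.9% lower. Hk3 was at 29.6, 19.0, 53.6, 30.2 and 42.6 FPKM in BG136 plus anti-PD-1 tumours, 14.2, 17.4, 14.6, 26.8 and 35.7 in anti-PD-1 tumours, and 10.3, 11.3, 9.75, 11.1 and 9.41 in vehicle tumours. Both treated groups lay wholly above vehicle. The log2 change was 1.58 ± 0.26 with the combination (adjusted p = 5.12e-04) and 0.91 ± 0.26 with anti-PD-1, which did not pass (adjusted p = 0.0546). Pfkm, the muscle type of phosphofructokinase, changed by -0.33 ± 0.08 with the combination (adjusted p = 0.00372). Bpgm, which diverts a glycolytic intermediate and is best known from red cells, changed by -0.42 ± 0.11 with the combination (adjusted p = 0.00721) and by -0.41 ± 0.11 with anti-PD-1 (adjusted p = 0.0412). Gapdh, at its low listed level, changed by 0.07 ± 0.12 with the combination.

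Of 13 genes for pyruvate entry into mitochondria and lactate import, all tested, 0 were higher and 2 lower in the combination than in vehicle, both regulators of pyruvate dehydrogenase. Pdk3, a kinase that inhibits the complex, changed by -0.39 ± 0.08 (adjusted p = 0.00158), and Pdp2, a phosphatase that reactivates it, by -0.31 ± 0.09 (adjusted p = 0.0124). Without combination replicates 3 and 5 Pdp2 did not pass (-0.25 ± 0.10, adjusted p = 0.0774). Of 31 other known hypoxia targets 27 were tested, and 5 were higher and 4 lower. Beside both lists, 16.6% of all genes tested were higher and 23.9% lower. The matrix crosslinker Lox (1.09 ± 0.28, adjusted p = 0.00759), the glycogen phosphorylase Pygl (0.93 ± 0.21, adjusted p = 0.00337), the haem oxygenase Hmox1 (0.78 ± 0.20, adjusted p = 0.00828) and the secreted glycoprotein Stc2 (0.45 ± 0.09, adjusted p = 0.00193) were higher. Without combination replicates 3 and 5, 3 of 26 such targets were higher and 0 lower, while 28.4% of all genes passed. Lox (0.72 ± 0.27, adjusted p = 0.0639) and Hmox1 (0.42 ± 0.15, adjusted p = 0.0531) did not pass there. The 4 genes named as higher were those with the smallest p of the list. The 4 lower ones, added here after their values were seen, were the glycogen branching enzyme Gbe1 (-0.46 ± 0.13, adjusted p = 0.0127), Zfp395 (-0.34 ± 0.11, adjusted p = 0.0244), the glycogen synthase Gys1 (-0.37 ± 0.12, adjusted p = 0.0269) and the transcriptional repressor Bhlhe40 (-0.41 ± 0.14, adjusted p = 0.0341). For anti-PD-1 against vehicle 0 of these 27 passed, and Cited2 and Bpgm were the 2 genes of the 4 lists that did. Of all genes tested 5.55% passed there. Without combination replicates 3 and 5, which enter that comparison only through the shared spread and the filter, 12 of 62 genes of the 4 lists passed, 5 higher and 7 lower, among them Epas1 (0.56 ± 0.15, adjusted p = 0.0271) and Hk3 (0.91 ± 0.22, adjusted p = 0.0139), while 16.0% of all genes passed. Between the combination and anti-PD-1 alone no gene of the 4 lists passed. The lists thus moved in both directions, as the members did.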

How the data were processed

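Strand-specific mRNA libraries of 15 MC38 tumour blocks were deposited as 1 table of expression values. The deposited values were read as FPKM computed by the authors, from the values themselves and from Cufflinks in the submitters' processing notes. Beside Cufflinks, the submitters' processing notes list the authors' tools DESeq, HTSeq, HISAT2 and Trimmomatic and the build GRCm39; versions and roles are not given in the sources used here. Of 21878 entries, 27 whose symbols had become dates were left out (at most 0.168% of a library's FPKM).

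Genes that reached 1 FPKM in 5 or more tumours were tested on the log2(FPKM + 1) scale by limma (version 3.58.1, under R 4.3.3; 3 group means over all 15 libraries, eBayes with trend, two-sided, Benjamini-Hochberg adjustment over 11311 genes, threshold 0.05). The log2 changes understate those of low genes. The fit was tested on simulated data. On these, it recovered 59, 60 and 57 of the 67 genes changed 1.5-fold in the 3 comparisons in the order reported. Each fit of 11311 genes also held genes changed 2-fold (67) and 4-fold (66), and made 51, 6 and 65 wrong calls in all. Changes were put only into genes above a level that Slc2a3, Aldoc, Pfkfb4 and Car9 do not reach, and noise was drawn separately for each gene. In the combination group the median SD of log2(FPKM + 1) was 0.358 over the members and 0.164 over all genes tested. The recovery therefore does not apply directly to the members.

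The members and the gene lists (4 pathway lists with 74 genes, 3 matched by synonym, and 10 marker lists with 78 genes) were chosen with earlier results of these data known. The plan was to name all 33 members, at most 4 genes per pathway list, and always Hif1a, Epas1 and Gapdh. Gbe1, Zfp395, Gys1, Bhlhe40, Loxl2 and Pdk2 were named beyond this plan. Relative depth was the most common ratio to vehicle replicate 1 among genes averaging at most 0.3 FPKM, and is least certain for combination replicate 4. Titles give each group replicates 1 to 5, but equal numbers did not deviate together, so they were not used as pairs. Alternatives were pseudocount, filter, scaling, replicate block, compared groups alone, weights per group and leaving out libraries. Promoter sequences are RefSeq's. Python 3.11.15 and matplotlib 3.10.9 were used for counts and figures.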

Additional observations from a re-analysis of the deposited data

Results flagged for a closer look

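Among 108 combinations of gene and group (the 33 members, Hif1a, Epas1 and Gapdh), 5 had a tumour far from the other 4, where chance gives about 1 in 20. Combination replicate 5 was far below the others for Hk2 (14.5 FPKM, next 22.7), Pkm (452 FPKM, next 576) and Mxi1 (5.10 FPKM, next 6.89). Anti-PD-1 replicate 3 was far above the others for Egln3 (39.8 FPKM, next 28.4). Vehicle replicate 5 was far below the others for Ankrd37 (3.93 FPKM, next 6.62).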

How the results depend on the processing

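For BG136 plus anti-PD-1 against vehicle, 8 members passed and the count was 5 when genes had to reach 5 FPKM in 5 or more tumours, where 29 members were tested. Slc2a3, Aldoc and Pfkfb4 were among those no longer tested. Under quantile normalization the split was 4 higher and 4 lower, with Pfkl in place of Pfkfb4. Leaving out 1 library gave 6 to 10 members. Without combination replicates 3 and 5, Slc16a3 changed sign and passed at 0.24, and so did Pdk2 at -0.25; the cause was not tested. For anti-PD-1 against vehicle, 2 members passed, 1 without the filter, 1 with the replicate block, 5 with the compared groups alone, 6 with 1 weight per group, 6 without combination replicates 3 and 5, and 1 to 4 without single libraries. The genes that passed numbered 628, and 347 with the replicate block, 2100 with the compared groups alone, 2269 with 1 weight per group, 1792 without combination replicates 3 and 5, and 223 to 1129 without single libraries. Between the combination and anti-PD-1 alone, 0 members passed (0 to 4 without single libraries), and 7 genes did. That number was 24 with at least 5 FPKM, 0 under median-ratio scaling, quantile normalization, the replicate block, the compared groups alone, 1 weight per group and without combination replicates 3 and 5, and 0 to 2222 without single libraries, the highest without combination replicate 2. Of the results of uncalled members under alternatives, the sign differed in 45 of 599, 24 of 740 and 77 of 788 in the 3 comparisons. Same-numbered tumours had correlated deviations between -0.388 and 0.293, and the best match was the same number in 1 of 15 cases. Apart from these counts, the block ended the Pfkp call for anti-PD-1 and no other member call; it also ended those of Cited2 and Bpgm for anti-PD-1 and of Loxl2 for the combination against vehicle. Unknown depth limits what can be said of Slc2a3, Aldoc, Pfkfb4 and Car9, whose FPKM is low.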
